A study of Homo sapiens with 24 samples.

Results

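The comparison described here sets 4 samples of the MYC-transformed MCF10A line PM carrying hairpin A against CHD1 beside 4 samples of the same line carrying a hairpin against GFP, 8 of the 24 samples of the study. The samples were chosen by their labels, and no measured value entered the choice. MCF10A is an established human breast epithelial line. Both groups were grown in medium with horse serum, EGF, hydrocortisone, cholera toxin and insulin, and both received doxycycline at 50 ng/ml for 72 h. The genotype label of the hairpin A samples is CHD1 KD, for knockdown. A second hairpin against CHD1, called B, was used in PM, and both CHD1 hairpins and the GFP hairpin were also used in PE, which the study calls non-transformed. Those samples serve here for the spread between replicates, for a pair of direct comparisons and for values set beside those of hairpin A in PM. The labels do not give the promoter behind the hairpins, the meaning of the letters PE and PM, or whether either line is 1 clone. No sample without a hairpin was analysed, so an effect of the CHD1 hairpin and an effect of the GFP hairpin cannot be told apart. The labels call the replicates biological without saying how the cultures were kept apart, so the p-values below cover variation among these cultures only, some of which may be technical.

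CHD1 is a chromatin remodeller that uses ATP to slide and space nucleosomes. Its chromodomains bind histone H3 methylated at lysine 4, and it is found at the start and along the body of transcribed genes. MYC is a transcription factor that raises ribosome production, nucleotide synthesis and other growth genes. NF-kB factors are held in the cytoplasm by inhibitor proteins and, once released, turn on chemokines and cytokines. The p53 factor turns on genes that stop the cell cycle or lead to cell death.

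The total count of the 8 samples ranged from 27946174 to 93299393. Replicate 4 of hairpin A stood apart: 19514 genes had a count in it, against 22014 to 24127 in the other 7, and 7.05% of its counts came from the mitochondrial genome, against 5.01% to 5.95%. Some counts are therefore also given without it. Counts given only with it can move as well. Of 37 aminoacyl-tRNA synthetases, 17 rose with it and 21 without it. Of 48 replication and G1/S genes, 36 fell with it and 33 without it. Mitochondrial ribosomal RNA made up 0.415% to 0.567% of the counts under hairpin A and 0.216% to 0.341% under the GFP hairpin, and its part in the results was not tested. Of the markers of breast epithelium, EPCAM, CDH1, KRT5, KRT18 and ITGA6 were present in all 8 samples, at 15.9 to 1362 CPM (counts scaled per 1000000 of the TMM-adjusted library size). Scaled by library size alone, CDH1 was at 15.5 to 22.0 CPM under hairpin A and 24.3 to 27.8 CPM under the GFP hairpin. KRT5 was at 921 to 969 against 992 to 1353 CPM. KRT18 was at 297 to 329 against 237 to 271 CPM, and ITGA6 at 54.1 to 60.4 against 45.9 to 48.7 CPM. The EPCAM ranges overlapped, at 100 to 109 against 81.4 to 104 CPM. KRT17 stood at 13.7 to 19.4 CPM under hairpin A and 40.7 to 118 CPM under the GFP hairpin. KRT14 was low, at 0.528 to 2.26 against 2.96 to 10.8 CPM, both genes scaled by library size alone. TP63, a basal marker, was near 0, with 21 and 66 counts over the 4 samples of each group, and the hormone receptor genes ESR1 and PGR were near 0 as well. Of the immune markers, CD3E (T cells) had no count in any of the 8 samples, and CD14, a monocyte marker that other cells can also express, was at 19.6 to 23.7 CPM under hairpin A and 11.0 to 14.5 CPM under the GFP hairpin, scaled by library size alone; its part in the results was not tested.

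CHD1 (chromosome 5, 98853985 to 98929007 in GRCh38) stood at 30.6, 27.6, 31.7 and 34.3 CPM under hairpin A and at 84.9, 95.3, 86.3 and 93.4 CPM under the GFP hairpin. Every hairpin A sample was below every GFP sample, and the fitted level was 65.5% lower. The log2 change was -1.54 ± 0.10 (SE, n = 4 a group) with an adjusted p of 5.06e-14 in edgeR's quasi-likelihood test with Benjamini-Hochberg adjustment over all genes, which is the source of every adjusted p below. The two-sided exact permutation test gave p = 0.0286, the smallest that the 70 assignments of 4 against 4 allow. Hairpin B lowered CHD1 by 1.61 on the log2 scale, and the hairpins did not differ in their CHD1 level past the threshold (hairpin A minus B 0.08, adjusted p = 0.65, edgeR).

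MYC, whose activity the study used to transform the line, stood at 564 ± 28.2 CPM (SD, n = 4) under hairpin A and 518 ± 27.4 CPM under the GFP hairpin. Its log2 change of 0.12 did not pass the threshold (adjusted p = 0.142, edgeR; exact permutation p = 0.0857), and the groups overlapped. Without replicate 4 of hairpin A the log2 change was 0.17 with an adjusted p of 0.0356. Under hairpin B the level was 392 ± 12.3 CPM, and here the direct test between the hairpins passed: MYC was 0.52 higher under A on the log2 scale (adjusted p = 3.8e-08, edgeR).

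Of 20820 genes tested, 5778 (27.8%) passed an adjusted p of 0.05, 2799 of them higher (13.4%) and 2979 lower (14.3%) under hairpin A. Without replicate 4 of hairpin A, 5583 genes passed, 2918 of them higher and 2665 lower, and 5090 of the 5778 remained called. A change of at least 2-fold on top of the test left 1130 genes (5.43%), 484 higher and 646 lower, and 519 when at least 5 CPM in 4 samples was required. Most changes were small: 2900 of the called genes moved by less than 0.5 on the log2 scale and 209 by 3 or more. All 4 hairpin A samples lay on 1 side of all 4 GFP samples for 6053 of the genes tested (29.1%), and for 4908 of the 5778 called. The median log2 change of all genes was -0.01. In bulk RNA, fewer cells of a kind and less RNA per cell cannot be told apart.

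**Figure D1:**
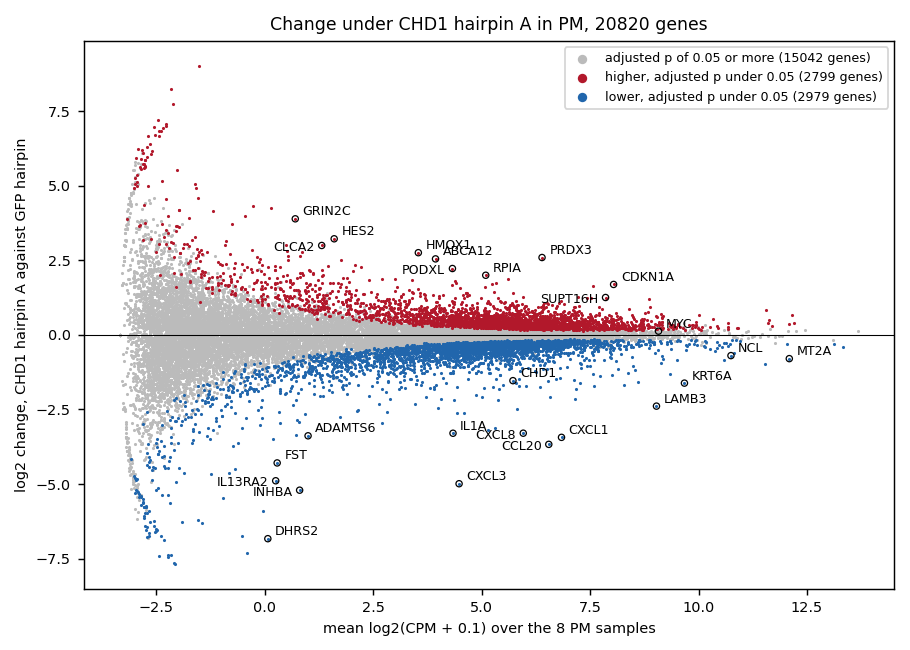
Log2 change under CHD1 hairpin A against the GFP hairpin in PM (vertical axis) by the mean log2(CPM + 0.1) over the 8 samples (horizontal axis), 1 point a gene, coloured by the call. CXCL1 lies at -3.44 and CCL20 at -3.67 among genes of middle level, and PRDX3 lies at 2.59.

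Of the 15 largest falls among protein-coding genes that reached 5 CPM in a group, 8 were chemokines, cytokines or other targets of NF-kB. Of 38 tested genes of the NF-kB, chemokine and cytokine list, 25 fell and 1 rose, against 14.3% and 13.4% of all genes, and the median log2 change was -1.67. Without replicate 4 of hairpin A, 23 fell and 1 rose. Among the 14184 protein-coding genes tested, 2655 fell and 2561 rose, 36.8% in all. That share is a closer background for lists of coding genes, here and below. The neutrophil chemokines CXCL1, CXCL2, CXCL3 and CXCL8 lie in 1 cluster on chromosome 4, and their promoters are shown because all 4 genes fell and all 4 windows hold the same letters of an NF-kB-like motif. Each line gives 250 bases before to 50 after the RefSeq start (GRCh38.p14), 5′ to 3′ on the gene's strand, with matches to GGAANNTCC on either strand in capitals. The windows are chr4:73869143-73869442 (plus strand) for CXCL1, chr4:74099146-74099445 (minus strand) for CXCL2, chr4:74038640-74038939 (minus strand) for CXCL3 and chr4:73740319-73740618 (plus strand) for CXCL8.
CXCL1: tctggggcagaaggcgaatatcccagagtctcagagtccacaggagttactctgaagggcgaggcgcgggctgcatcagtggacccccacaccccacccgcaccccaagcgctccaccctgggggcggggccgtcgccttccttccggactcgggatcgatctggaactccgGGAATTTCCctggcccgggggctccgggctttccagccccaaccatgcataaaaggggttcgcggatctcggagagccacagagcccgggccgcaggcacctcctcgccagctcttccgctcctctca
CXCL2: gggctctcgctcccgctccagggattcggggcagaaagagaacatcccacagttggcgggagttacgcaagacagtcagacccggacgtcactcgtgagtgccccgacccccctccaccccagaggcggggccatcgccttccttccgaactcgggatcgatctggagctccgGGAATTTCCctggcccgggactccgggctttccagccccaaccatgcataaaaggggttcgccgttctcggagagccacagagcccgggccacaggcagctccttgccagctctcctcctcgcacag
CXCL3: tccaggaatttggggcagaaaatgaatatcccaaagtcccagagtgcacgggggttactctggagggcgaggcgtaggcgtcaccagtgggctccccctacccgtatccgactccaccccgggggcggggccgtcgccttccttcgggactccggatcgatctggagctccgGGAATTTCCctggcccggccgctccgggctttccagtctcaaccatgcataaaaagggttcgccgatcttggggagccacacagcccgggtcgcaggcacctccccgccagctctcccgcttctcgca
CXCL8: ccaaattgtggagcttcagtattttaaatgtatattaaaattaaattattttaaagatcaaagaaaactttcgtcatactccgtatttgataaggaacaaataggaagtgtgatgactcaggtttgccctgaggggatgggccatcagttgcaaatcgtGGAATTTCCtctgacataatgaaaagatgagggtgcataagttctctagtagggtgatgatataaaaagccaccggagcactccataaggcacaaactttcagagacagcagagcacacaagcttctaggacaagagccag

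In all 4 windows the match reads GGAATTTCC, which was part of the choice. The windows of CXCL5 and CXCL6, also on chromosome 4, hold the same letters. Of the 40 genes of the list, 31 had a promoter in the RefSeq table; 17 of these held the motif, of which 12 fell, and 14 did not, of which 9 fell. Over the whole table, 4.59% of 27305 promoters held it. Among tested protein-coding genes it was in 4.57% of 11520 promoters. It was in 33 of 354 (9.32%) of the genes that fell at least 2-fold. Of those that rose at least 2-fold, 11 of 256 (4.30%) held it. The 33 include members of the list just described, among them CXCL1, CXCL2, CXCL3 and CXCL8. Without the 2-fold limit the shares were close to that of all tested genes: 103 of 2167 (4.75%) of those that fell and 4.83% of the 2093 that rose. Other motifs were counted as well. An E2F-like motif (TTTNNCGC) was in 10.1% of tested promoters, 12.0% of falls and 11.0% of rises. At 2-fold its shares were 7.34% of falls and 8.59% of rises. The E-box (CACGTG) was in 9.88%, 8.63% and 11.7%, and at 2-fold in 8.76% and 8.98%. A match is a description of the letters in this window, and no test of binding was made.

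CXCL1, which attracts neutrophils through CXCR2, stood at 39.6, 44.9, 34.3 and 23.3 CPM under hairpin A and at 378, 415, 445 and 301 CPM under the GFP hairpin, a log2 change of -3.44 ± 0.24 (adjusted p = 1.92e-09). CXCL8, the main neutrophil attractant also called interleukin 8, went from 187, 238, 232 and 135 CPM under the GFP hairpin to 19.1, 20.7, 22.5 and 17.9 CPM (log2 -3.30 ± 0.22). CXCL3 stood at 5.21, 5.95, 3.59 and 1.89 CPM against 120, 180, 142 and 86.2 CPM (log2 -4.99 ± 0.36). That was the steepest fall of the 4 genes whose promoters are shown. In each of these genes the highest hairpin A sample was far below the lowest GFP sample, and replicate 4 was the lowest of both groups for all 3. CXCL2 fell by 3.18 on the log2 scale, from 110 ± 22.4 to 12.1 ± 4.10 CPM (SD, n = 4). CXCL5, a further member of the cluster, had no count under hairpin A and 0.244 to 1.03 CPM under the GFP hairpin.

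Outside the cluster, CCL20, which attracts dendritic cells and lymphocytes through CCR6, fell from 344 ± 79.0 to 26.9 ± 7.79 CPM (log2 -3.67 ± 0.26, adjusted p = 2.49e-09). IL1A, the alarm cytokine interleukin 1 alpha, stood at 7.01, 7.92, 6.77 and 4.33 CPM against 57.7, 82.4, 63.8 and 54.1 CPM (log2 -3.30 ± 0.28). IL6 stood at 4.00, 3.34, 2.04 and 0.977 CPM against 26.1, 26.9, 17.7 and 8.01 CPM (log2 -2.94 ± 0.54). The groups did not overlap for any of the 3, although the IL6 samples of either group spread by over 3-fold. CFB, complement factor B, fell from 124 ± 39.1 to 14.3 ± 5.84 CPM (log2 -3.11), while complement C3, the member with the highest CPM, was at 1009 ± 96.9 against 1186 ± 250 CPM and did not pass (adjusted p = 0.21). TNIP1, an inhibitor of NF-kB signalling, fell by 1.57 on the log2 scale (679 ± 90.9 to 228 ± 28.1 CPM) and SOD2, a mitochondrial superoxide dismutase, by 1.17. TNFAIP3, which ends NF-kB signalling, NFKBIA, the inhibitor that holds NF-kB, and the cytokine IL1B were picked after their values were seen; they fell by 1.76, 0.93 and 1.58 on the log2 scale. IL13RA2, a decoy receptor for interleukin 13, fell from 5.67 ± 1.28 to 0.189 ± 0.149 CPM.

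**Figure D2:**
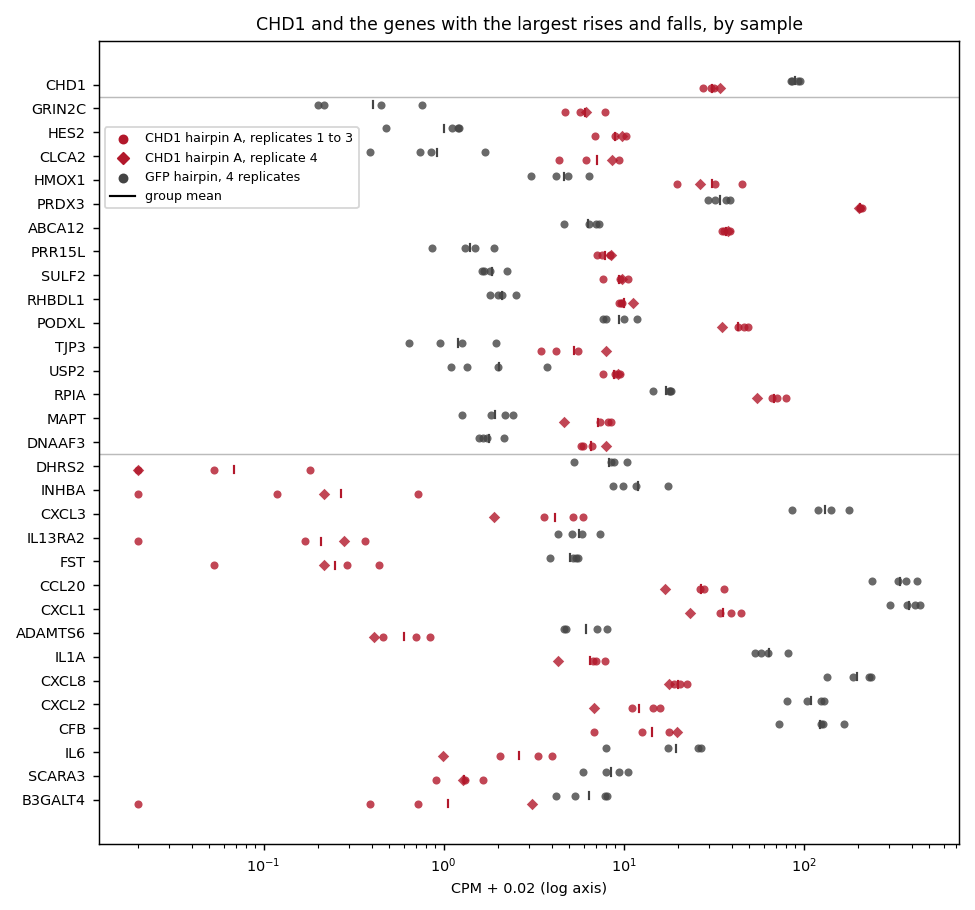
CPM in each of the 8 PM samples on a log axis (0.02 added so that 0 can be drawn) for CHD1 and for the protein-coding genes with the 15 largest rises and 15 largest falls, red for hairpin A and grey for the GFP hairpin, with a bar at each group mean. The groups do not overlap for any of these genes, a condition of the choice; a diamond marks replicate 4 of hairpin A.

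Genes that respond to growth signals within minutes were lower. Of 28 immediate-early genes tested, 18 fell and none rose (median log2 -0.81). EGR1, a zinc finger factor induced by ERK signalling, stood at 89.5, 90.1, 54.5 and 79.3 CPM under hairpin A and at 329, 277, 231 and 262 CPM under the GFP hairpin (log2 -1.81 ± 0.34, adjusted p = 0.00043). MAFF, a small MAF factor, fell by 1.63, and the orphan nuclear receptor NR4A1 by 1.92 on the log2 scale. Of 13 EGF family ligands and receptors, 7 fell and 1 rose (median log2 -0.74). The ligand AREG (amphiregulin) went from 526, 582, 525 and 603 CPM to 155, 164, 155 and 230 CPM (log2 -1.67 ± 0.16, adjusted p = 9.57e-08). EREG (epiregulin) fell from 27.2 ± 3.20 to 6.49 ± 1.27 CPM and BTC (betacellulin) from 6.21 ± 0.627 to 1.92 ± 0.672 CPM. The receptor EGFR itself fell from 129 ± 5.72 to 77.6 ± 3.76 CPM (log2 -0.74). Of 18 ERK feedback genes, 8 fell, among them the ERK phosphatase DUSP6 (43.6 ± 5.28 to 20.9 ± 1.45 CPM), and 3 rose, among them SPRED3, an inhibitor of RAS signalling (log2 1.68).

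Activin A and its antagonist fell together to near 0. INHBA, which encodes the activin A subunit, stood at 0, 0.0984, 0.701 and 0.195 CPM under hairpin A and at 8.76, 11.7, 17.7 and 9.96 CPM under the GFP hairpin (log2 -5.21 ± 0.57). FST, follistatin, which binds and blocks activin, stood at 0.0328, 0.270, 0.420 and 0.195 CPM against 5.59, 5.40, 5.24 and 3.86 CPM (log2 -4.29 ± 0.44). The levels under hairpin A rest on 75 and 57 counts over the 4 samples. BMP2 fell by 2.54 on the log2 scale, and ID1, a target of BMP signalling, fell from 298 ± 20.8 to 121 ± 10.6 CPM (log2 -1.30). Over the activin, TGF-beta and BMP list, 16 of 40 fell and 6 rose. Of 25 YAP and TEAD targets, 10 fell and 1 rose, with CCN1 at -1.60 and tissue factor F3 at -1.45 on the log2 scale.

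Of 32 targets of p53, 16 rose and 2 fell, and the median log2 change was 0.34. CDKN1A, which encodes the CDK inhibitor p21, stood at 473, 511, 503 and 414 CPM under hairpin A and at 160, 145, 160 and 125 CPM under the GFP hairpin (log2 1.69 ± 0.16, adjusted p = 1.31e-07). TRIAP1, a small p53-induced survival protein, went from 22.0 ± 1.90 to 73.0 ± 2.62 CPM, and GDF15, a secreted stress factor, from 26.4 ± 7.88 to 96.3 ± 17.2 CPM. TP53INP1, a cofactor of p53, rose from 4.16 ± 0.927 to 15.3 ± 2.28 CPM and FDXR, a mitochondrial ferredoxin reductase, from 37.6 ± 5.12 to 81.7 ± 7.37 CPM. No sample of either group crossed into the other for these 5 genes. Among the abundant targets, CCNG1 rose by 0.47 on the log2 scale and TNFRSF10B, a death receptor, did not pass (log2 -0.06, adjusted p = 0.495). PURPL, a long non-coding RNA known as a p53 target, led the non-coding rises, from 0.459 ± 0.188 to 3.75 ± 1.28 CPM (log2 3.00 ± 0.48).

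Genes of DNA replication and of mitosis were lower by modest amounts. Of 48 replication and G1/S genes, 36 fell and 1 rose (median log2 -0.40), and of 50 mitotic and kinetochore genes, 39 fell and 2 rose (median log2 -0.40). FEN1, the flap endonuclease of lagging strand synthesis, stood at 60.9, 65.1, 56.5 and 62.2 CPM against 136, 152, 133 and 126 CPM (log2 -1.16 ± 0.13). RRM2, a ribonucleotide reductase subunit, fell from 461 ± 35.8 to 274 ± 14.7 CPM and TK1, thymidine kinase, from 123 ± 5.78 to 63.7 ± 1.40 CPM. The mitotic kinase gene NEK2 fell by 0.86 on the log2 scale, while TOP2A, the topoisomerase of dividing cells, did not pass (log2 -0.11, adjusted p = 0.254). Of 35 homologous recombination and Fanconi genes, 20 fell and none rose, with BRCA2 at -0.88 and BLM at -0.82 on the log2 scale. The abundant members RBBP8, NBN and RAD50 did not pass (log2 -0.15, 0.12 and -0.01). Among G1 cyclins and CDK inhibitors, CCND2 rose from 15.5 ± 2.64 to 40.8 ± 4.00 CPM and CCND1 from 245 ± 24.8 to 360 ± 2.51 CPM, while CDK2 fell from 70.4 ± 1.39 to 39.3 ± 1.46 CPM and the inhibitor CDKN1B from 39.5 ± 5.00 to 24.5 ± 3.48 CPM.

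Genes that build ribosomes and fold proteins in the cytosol were higher. Of 45 genes of ribosome biogenesis and RNA polymerase I, 27 rose and 2 fell (median log2 0.33). POLR1B, a large subunit of RNA polymerase I, stood at 197, 199, 195 and 189 CPM under hairpin A and at 97.6, 110, 87.0 and 110 CPM under the GFP hairpin (log2 0.95 ± 0.08, adjusted p = 1.41e-11). The processing factors RRP9 and RRP12 rose by 0.76 and 0.73. Nucleolin, NCL, went the other way, from 2191 ± 91.1 to 1352 ± 58.4 CPM (log2 -0.70), and NPM1 did not pass (log2 -0.07). Of 27 cytosolic chaperones and heat shock genes, 13 rose and none fell. HSPE1, a co-chaperonin of the mitochondria that the list also holds, rose from 56.5 ± 3.01 to 109 ± 7.05 CPM, and CCT4, a subunit of the cytosolic chaperonin, by 0.53 on the log2 scale. The abundant HSPA8, HSP90AA1 and HSP90AB1 did not pass (log2 -0.05, 0.19 and -0.03). Of 37 aminoacyl-tRNA synthetases, 17 rose and 5 fell, with the mitochondrial LARS2 at 90.0 ± 5.37 against 45.8 ± 1.60 CPM.

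Of 29 classical MYC targets, 14 rose and 3 fell (median log2 0.23). SRM, spermidine synthase, stood at 361, 400, 350 and 299 CPM against 208, 235, 197 and 210 CPM (log2 0.73 ± 0.10). OAZ1, the antizyme that restrains polyamine synthesis, also rose, from 343 ± 4.03 to 648 ± 30.8 CPM, and SAT1, which breaks polyamines down, fell from 182 ± 19.6 to 86.5 ± 8.04 CPM. Ornithine decarboxylase ODC1 did not pass (log2 -0.02). In the MYC and MAX network, MXD4, a repressor that competes with MYC for MAX, rose from 114 ± 24.6 to 269 ± 18.1 CPM and its relative MXD3 fell from 17.1 ± 2.69 to 9.13 ± 0.834 CPM.

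PRDX3, a mitochondrial peroxiredoxin and also on the list of MYC targets, was the rise with the smallest standard error among the 15 largest. It stood at 206, 211, 205 and 204 CPM under hairpin A and at 37.0, 32.2, 29.3 and 38.8 CPM under the GFP hairpin, a log2 change of 2.59 ± 0.07 (adjusted p = 3.28e-24). Its level was 162 ± 8.44 CPM under hairpin B in PM. In PE it was 177 ± 2.29 CPM under hairpin A and 32.1 ± 2.32 CPM under the GFP hairpin. In both lines, then, the GFP samples were the low ones, and without a sample that has no hairpin an effect of the GFP hairpin on this gene and an effect of losing CHD1 cannot be told apart. RPIA, ribose 5-phosphate isomerase, showed a like order of groups: 68.4 ± 10.4 CPM under hairpin A, 57.6 ± 6.50 under hairpin B and 17.2 ± 1.77 under the GFP hairpin in PM, with 27.3 ± 1.35 and 10.8 ± 1.62 CPM under hairpin A and the GFP hairpin in PE.

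Oxidative phosphorylation genes of the nucleus were slightly higher: 29 of 76 rose and none fell, with a median log2 change of 0.15. NDUFB10, a subunit of complex I, stood at 188, 180, 187 and 184 CPM against 114, 111, 107 and 111 CPM (log2 0.74 ± 0.06). Of 15 transcripts of the mitochondrial genome, 6 rose and none fell, but without replicate 4 of hairpin A, the sample with the highest mitochondrial share, 3 rose and 1 fell. COX3 rose by 0.67 on the log2 scale, from 3639 ± 294 to 5777 ± 663 CPM. The changes of ATP6 (0.40) and ND5 (0.29) lost their calls without that replicate, at adjusted p = 0.0546 and 0.135, and without replicate 3 of the GFP hairpin, at 0.0661 and 0.115 (edgeR). Among 78 ribosomal protein genes, 29 rose and 12 fell (median log2 0.10). Ribosomal protein genes have many pseudogene copies, and how reads with several matches were counted is not known, so their values are uncertain.

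The stress genes did not move as 1 group. HMOX1, haem oxygenase, stood at 32.3, 45.4, 19.8 and 26.5 CPM under hairpin A and at 4.90, 6.42, 3.03 and 4.19 CPM under the GFP hairpin (log2 2.75 ± 0.28, adjusted p = 2.69e-07). Of the other NRF2 and BACH1 targets, ME1, malic enzyme, rose from 78.6 ± 4.51 to 133 ± 10.9 CPM, whereas FTH1, the ferritin heavy chain, fell from 2063 ± 121 to 1158 ± 136 CPM (log2 -0.83). In all, 5 of 27 on that list rose and 7 fell. Of 32 genes of the ATF4 and amino acid response, 13 fell and 1 rose. The amino acid transporter SLC38A2 fell from 230 ± 15.6 to 106 ± 7.09 CPM and SLC7A5 by 0.85 on the log2 scale. MT2A, a metallothionein and 1 of the 10 most abundant called genes, stood at 3343, 3824, 3587 and 2579 CPM against 5598, 6379, 5830 and 5370 CPM (log2 -0.80 ± 0.14). Of 31 cholesterol and fatty acid synthesis genes, 8 rose and 7 fell: ACLY, which makes cytosolic acetyl-CoA, rose from 351 ± 14.7 to 595 ± 23.2 CPM (log2 0.76 ± 0.06).

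Of 19 hemidesmosome and laminin genes, 9 fell and 3 rose, with a median log2 change of -0.05. LAMB3, a laminin beta chain that anchors epithelia, stood at 203, 224, 258 and 232 CPM under hairpin A and at 1105, 1300, 1328 and 1077 CPM under the GFP hairpin (log2 -2.39 ± 0.12, adjusted p = 3.93e-12). The alpha chain gene LAMA3 fell as well, from 114 ± 19.2 to 62.4 ± 4.67 CPM. Of 15 keratins, 7 fell and 1 rose. The wound keratin KRT6A stood at 493, 453, 399 and 537 CPM against 1524, 1270, 1230 and 1755 CPM (log2 -1.62 ± 0.18), KRT17 fell by 2.07 and KRT14 by 2.03, while KRT5 did not pass (log2 -0.33, adjusted p = 0.255). KRT6A, KRT6B and KRT6C are near-identical, so the split of reads among them is uncertain. The clade B serpins included no rise: 6 of 8 fell, with SERPINB1, an elastase inhibitor, going from 66.9 ± 8.81 to 32.4 ± 1.79 CPM. SERPINB3, which shares reads with its near-copy SERPINB4, was at 0.0655, 0.0738, 0 and 0 CPM against 7.17, 4.43, 5.16 and 2.07 CPM.

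Markers of the outer epidermis were mixed, with 7 of 26 higher and 5 lower, and 4 higher and 4 lower without replicate 4 of hairpin A. ABCA12, the lipid transporter of the skin barrier, stood at 37.0 ± 1.78 CPM against 6.34 ± 1.19 CPM (SD, n = 4; log2 2.54 ± 0.36). CLCA2, a p53-responsive surface protein of squamous epithelium, stood at 7.14 ± 2.32 CPM against 0.902 ± 0.559 CPM (log2 2.99 ± 0.38). LY6D rose from 0.676 ± 0.231 to 4.35 ± 1.98 CPM. Of 37 mesenchymal genes, 12 fell and 8 rose. The factor SNAI2, also called Slug, fell from 43.4 ± 7.31 to 15.5 ± 2.14 CPM and SULF2, which removes sulfate groups from heparan sulfate, rose from 1.83 ± 0.283 to 9.37 ± 1.23 CPM. TIMP1, the metalloproteinase inhibitor, stood at 396, 440, 367 and 447 CPM against 915, 1155, 974 and 1071 CPM (log2 -1.32 ± 0.09). Of the markers of fibroblasts and endothelium, 12 of 16 could be tested, 2 rose and 3 fell, and their summed level, scaled by library size alone, was at most 29.8 CPM under hairpin A and at most 52.2 CPM under the GFP hairpin, in overlapping ranges, with 2 of the 16 at 0 in all 8 samples. The 16 immune markers, of which 6 could be tested, with 1 rise and 1 fall, summed to 41.6 to 49.5 against 54.3 to 60.7 CPM, with 3 at 0 in all 8 samples; PTPRC, the pan-leukocyte marker, had 13 counts under hairpin A and none under the GFP hairpin. The part of these markers in the results above was not tested.

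Among chromatin genes, CHD1 itself was the largest change of the CHD and ISWI list, of which 6 of 21 fell and 3 rose. CHD3 fell by 0.44 and BAZ1A, an ISWI partner, rose by 0.65 on the log2 scale, while CHD4 and SMARCA5 did not pass (log2 -0.05 and 0.01). Of 38 elongation factors and histone chaperones, 11 rose and 8 fell. SUPT16H, a subunit of the histone chaperone FACT, stood at 374, 346, 337 and 376 CPM against 153, 154, 136 and 158 CPM (log2 1.25 ± 0.07, adjusted p = 1.47e-15), and the chaperone ASF1A rose from 9.43 ± 1.55 to 23.5 ± 4.78 CPM. SSRP1, the partner of SUPT16H in FACT, did not pass (log2 -0.11, adjusted p = 0.166). Of 40 replication-dependent histones, 5 rose and none fell. Their transcripts largely lack poly(A) tails, and these libraries were made from poly(A) RNA, so their levels are uncertain.

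The remaining large rises concerned genes of low level. GRIN2C, an NMDA receptor subunit (chromosome 17, 74842023 to 74861532), stood at 4.69, 5.68, 7.84 and 6.16 CPM under hairpin A and at 0.180, 0.196, 0.743 and 0.427 CPM under the GFP hairpin (log2 3.89 ± 0.44, adjusted p = 1.87e-08). HES2, a repressor of the HES family, went from 0.985 ± 0.354 to 8.99 ± 1.51 CPM and PRR15L from 1.37 ± 0.434 to 7.89 ± 0.699 CPM. PODXL, the surface sialomucin podocalyxin, rose from 9.38 ± 1.94 to 43.5 ± 5.89 CPM, and MAPT, which encodes tau, from 1.91 ± 0.499 to 7.17 ± 1.75 CPM. RHBDL1, TJP3, USP2 and DNAAF3 rose by 2.26, 2.17, 2.13 and 1.90 on the log2 scale. At the other end, DHRS2, a short-chain dehydrogenase, stood at 0.0328, 0, 0.162 and 0 CPM against 8.86, 10.5, 8.47 and 5.27 CPM (log2 -6.83 ± 0.64), a level that rests on 16 counts under hairpin A. The metalloproteinase ADAMTS6 and the scavenger receptor SCARA3 fell by 3.38 and 2.74 on the log2 scale. B3GALT4, the last of the 15 falls, was at 0, 0.369, 0.701 and 3.09 CPM against 7.89, 4.21, 8.08 and 5.39 CPM. Its adjusted p of 0.0392 was lost when any 1 of 6 samples was left out, with values of 0.0534 to 0.106 (edgeR).

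Calls were less frequent outside protein-coding genes: 7.91% of 3807 long non-coding RNAs passed, 113 higher and 188 lower, against 36.8% of 14184 protein-coding genes. Levels were not matched, and the part of level in this difference was not tested. With at least 5 CPM required in 4 samples, 5591 of 11680 genes of any type were called. The urothelial cancer associated RNA UCA1 fell from 2.00 ± 0.847 to 0.0770 ± 0.0987 CPM. Among protein-coding genes the balance of calls changed with gene length. Of genes of 5 to 10 kb, 21.6% rose and 15.6% fell, and of genes of 200 kb and over, 12.2% rose and 19.4% fell. The median log2 change went from 0.08 in the 5 to 10 kb bin to -0.07 in the longest. For hairpin B in PM the medians of those bins were 0.03 and 0.08, and for hairpin A in PE 0.03 and -0.02.

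**Figure D3:**
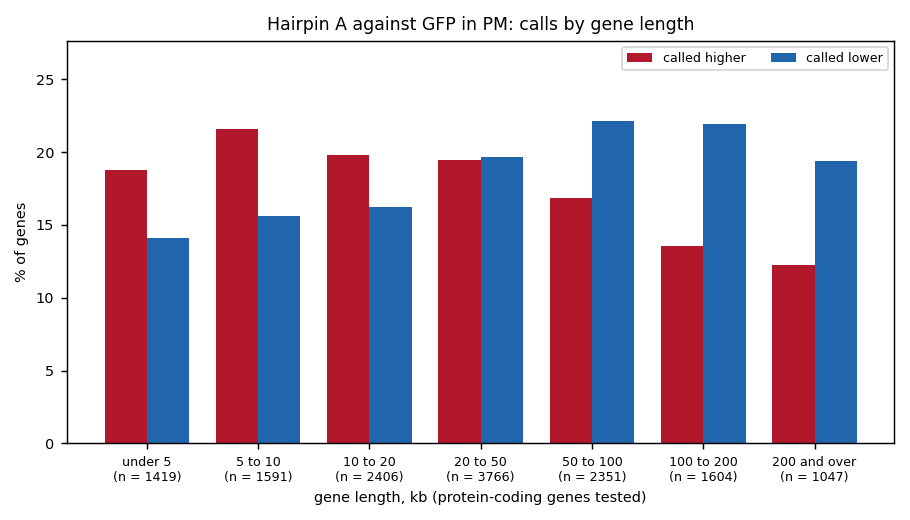
Share of tested protein-coding genes called higher (red) or lower (blue) under hairpin A against the GFP hairpin in PM, by gene length in kb, with the number of genes in each bin. The share called higher is 12.2% in the longest bin and 21.6% at 5 to 10 kb.

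Hairpin A was then compared with hairpin B in the same line, with no GFP sample in the contrast, to ask which changes depend on the hairpin. In this test 5468 genes (26.3%) differed, 2817 higher (13.5%) and 2651 lower (12.7%) under A. Scaled by library size alone, 41.4% of the calls were higher in place of 51.5%. Of the 5778 genes called for A against GFP, 2857 (49.4%, and 52.2% of the 5468) also differed between the hairpins. Both contrasts hold the same hairpin A samples, so part of this overlap is built in. Replicate 3 of hairpin B stood apart, with 33137 genes with a count against 21732 to 24764 in the other 3. Without it, 4608 genes differed, 2302 higher and 2306 lower. At 2-fold and over, 209 genes were higher and 822 lower under A, and 202 and 707 without that replicate.

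Ribosome biogenesis was among the lists with the most genes higher under hairpin A than under B. Of 45 ribosome biogenesis genes, 37 were higher under A than under B and 2 lower, against 13.5% and 12.7% of all genes; of 27 cytosolic chaperones, 21 were higher and none lower; and of 29 MYC targets, 20 were higher and 1 lower. Without replicate 3 of hairpin B these counts were 34 and 2, 18 and 0, and 17 and 1. Against GFP, with shared GFP samples, the median changes under A and B were 0.33 and -0.03 for ribosome biogenesis, 0.26 and -0.13 for the chaperones and 0.23 and -0.19 for the MYC targets, of which 14 fell and 5 rose under B. Of 31 cholesterol and fatty acid genes, 20 were higher under A than under B and 1 lower. Here hairpin B was the one further from GFP, with 21 lower and 1 higher, against 7 lower and 8 higher under A. In this list ACLY stood at 305 ± 10.1 CPM under hairpin B against 595 ± 23.2 under A (log2 difference 0.96, adjusted p = 2.4e-14). CCND1 was higher under A by 1.10 on the log2 scale, at 360 ± 2.51 against 168 ± 21.0 CPM. MRPS21, a mitochondrial ribosomal protein, was 1.75 higher under A, at 172 ± 6.82 CPM against 51.0 ± 5.91 under hairpin B and 125 ± 10.5 under the GFP hairpin, so that hairpin B held the low samples.

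Other lists were lower under hairpin A than under B. Of 38 NF-kB targets and cytokines, 20 were lower and 5 higher, and the median change from GFP was -1.67 under A and -0.74 under B. CXCL1 stood at 105 ± 29.3 CPM under hairpin B against 35.5 ± 9.21 under A (log2 difference -1.56, adjusted p = 3e-05), and CFB at 66.5 ± 17.2 against 14.3 ± 5.84 CPM. Of 37 mesenchymal genes, 18 were lower under A and 2 higher. SNAI2 was at 44.7 ± 6.50 CPM under hairpin B, 43.4 ± 7.31 under the GFP hairpin and 15.5 ± 2.14 under A. TIMP1 was at 1227 ± 112 CPM under hairpin B and 413 ± 37.8 under A. AREG was 1.37 lower under A on the log2 scale (455 ± 36.4 CPM under B, 176 ± 36.4 under A). Of 32 p53 targets, 12 were lower under A than under B and 1 higher, but CDKN1A, at 517 ± 123 against 475 ± 43.8 CPM, did not differ past the threshold (log2 difference -0.12, adjusted p = 0.65). Among the largest single differences were EDN2, endothelin 2, which was 4.31 lower on the log2 scale under A (44.3 ± 10.5 CPM under B, 3.27 ± 1.73 under the GFP hairpin), and NOTCH3 at 5.87 ± 1.54 against 0.747 ± 0.215 CPM; neither passed for A against GFP.

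**Figure D4:**
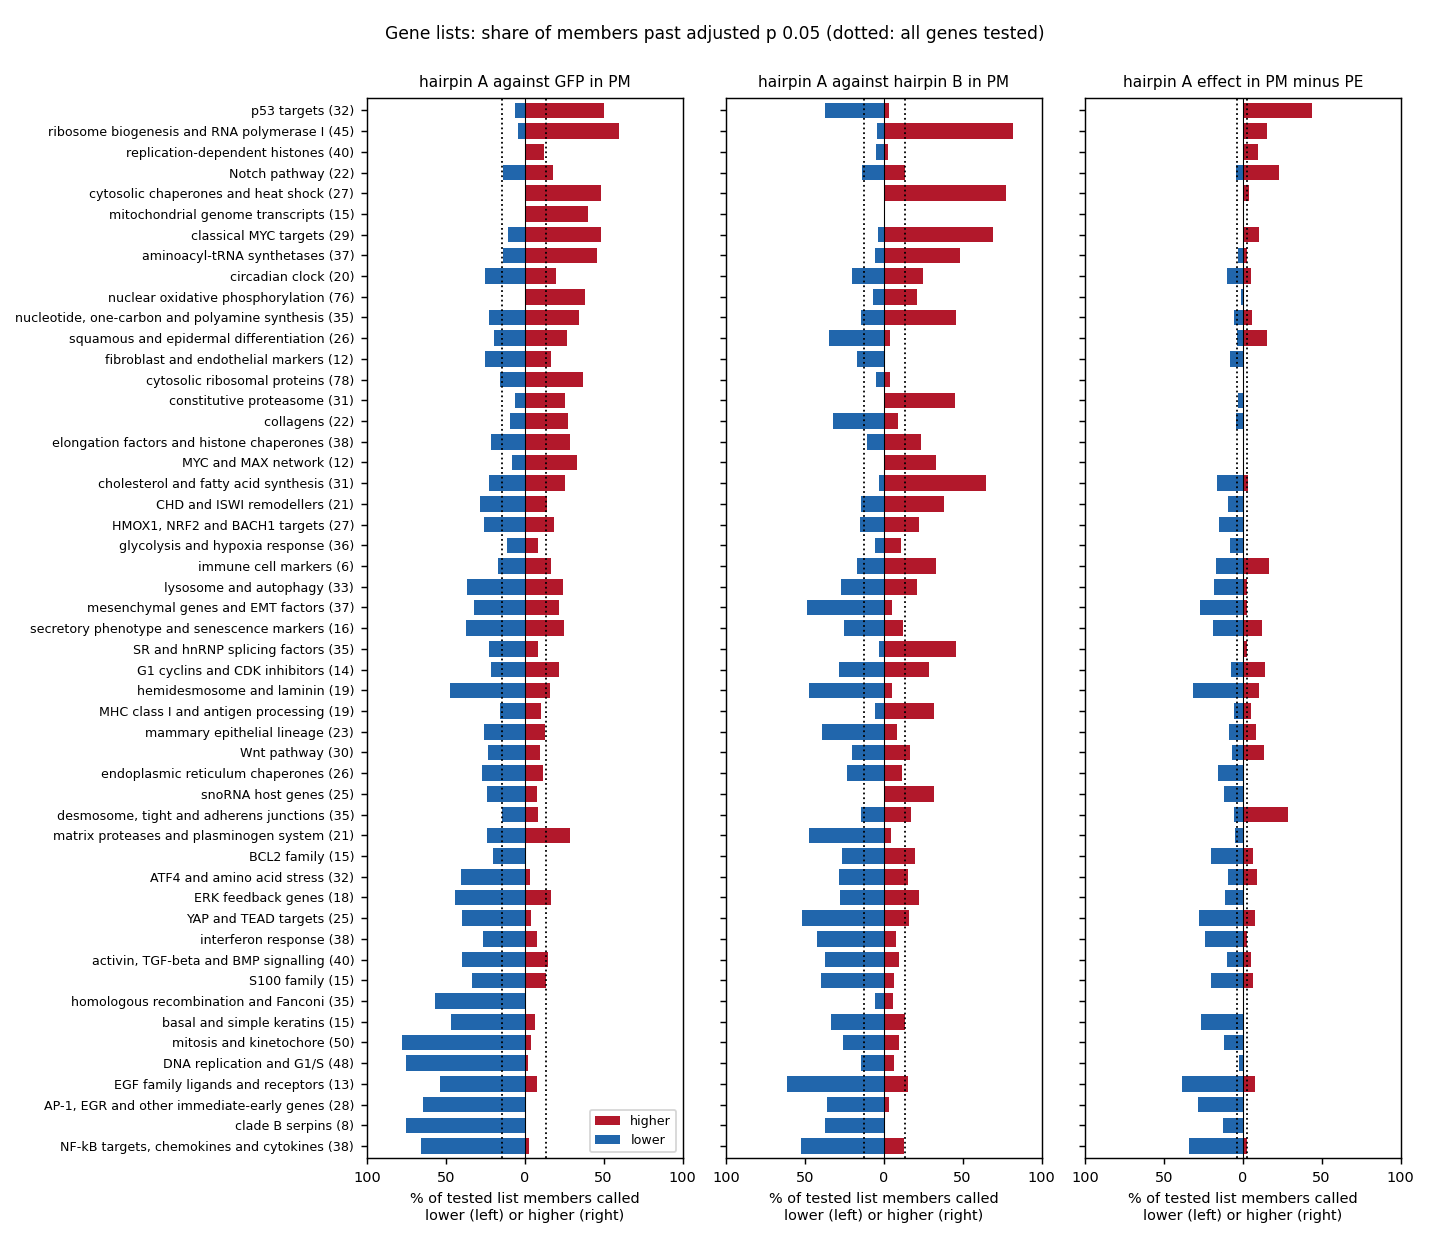
Share of the tested members of each of the 51 gene lists called higher (red, right) or lower (blue, left) for hairpin A against GFP in PM, for hairpin A against hairpin B in PM, and for the difference of the hairpin A effect between PM and PE; dotted lines give the shares over all genes tested, and the number tested stands after each name. Ribosome biogenesis is mostly red in the first 2 panels (27 and 37 of 45), and NF-kB targets are mostly blue in them (25 and 20 of 38).

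To ask whether the effect of hairpin A depends on the line, the change in PM was set against the change in PE in 1 model; the lines share no sample. The effects differed for 1386 genes (6.66%), 575 with a more positive change in PM (2.76%) and 811 with a more negative one (3.9%). Of the 1386, 971 (70.1%) were also called for A against GFP in PM, which is 16.8% of those 5778. The line comparison holds all samples of that contrast, so part of the overlap is built in. Scaled by library size alone, 56.5% of the calls were more positive in place of 41.5%. Replicate 1 of the GFP hairpin in PE held 4142862 counts, and without it 638 genes had a more positive and 734 a more negative change.

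Of the p53 targets, 14 of 32 had a more positive change in PM and none a more negative one, against 2.76% and 3.9% of all genes. Without the shallow GFP sample in PE the count was 13, and without replicate 4 of hairpin A in PM it was 15. Their median change was 0.34 in PM and -0.11 in PE. CDKN1A stood at 279 ± 27.9 CPM under hairpin A and 174 ± 17.5 under the GFP hairpin in PE (log2 0.67), and its change was 1.02 larger in PM (adjusted p = 0.008, edgeR). FDXR changed by 1.12 in PM and -0.37 in PE. GRIN2C, at 0.251 ± 0.0977 and 0.238 ± 0.104 CPM in PE, had a change 3.97 larger in PM (adjusted p = 0.00026), and HES2 one 3.13 larger. ABCA12 was at 1.69 ± 0.984 CPM under hairpin A and 4.02 ± 1.97 under the GFP hairpin in PE, so that the direction of its change was the opposite of that in PM.

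In the other direction, 13 of 38 NF-kB targets had a more negative change in PM and 1 a more positive one. CCL20 stood at 216 ± 48.3 CPM against 509 ± 75.8 in PE (log2 -1.24), and its fall was 2.43 larger in PM (adjusted p = 0.00016). EREG was at 80.9 ± 1.37 against 104 ± 19.2 CPM in PE, with a change 1.71 more negative in PM. LPAR3, a lysophosphatidic acid receptor, instead had a more positive change in PM. It was at 0.528 ± 0.125 against 3.62 ± 0.814 CPM in PE and at 16.0 ± 1.26 against 16.8 ± 3.21 CPM in PM. The changes were -2.79 in PE and -0.07 in PM (difference adjusted p = 1.4e-08, edgeR). Of 48 replication genes, 1 had a more negative change in PM, and the median changes were -0.40 in PM and -0.38 in PE. HMOX1 and PRDX3 changed by 3.20 and 2.45 in PE and by 2.75 and 2.59 in PM, with no difference past the threshold (adjusted p = 0.61 and 0.49, edgeR).

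**Figure D5:**
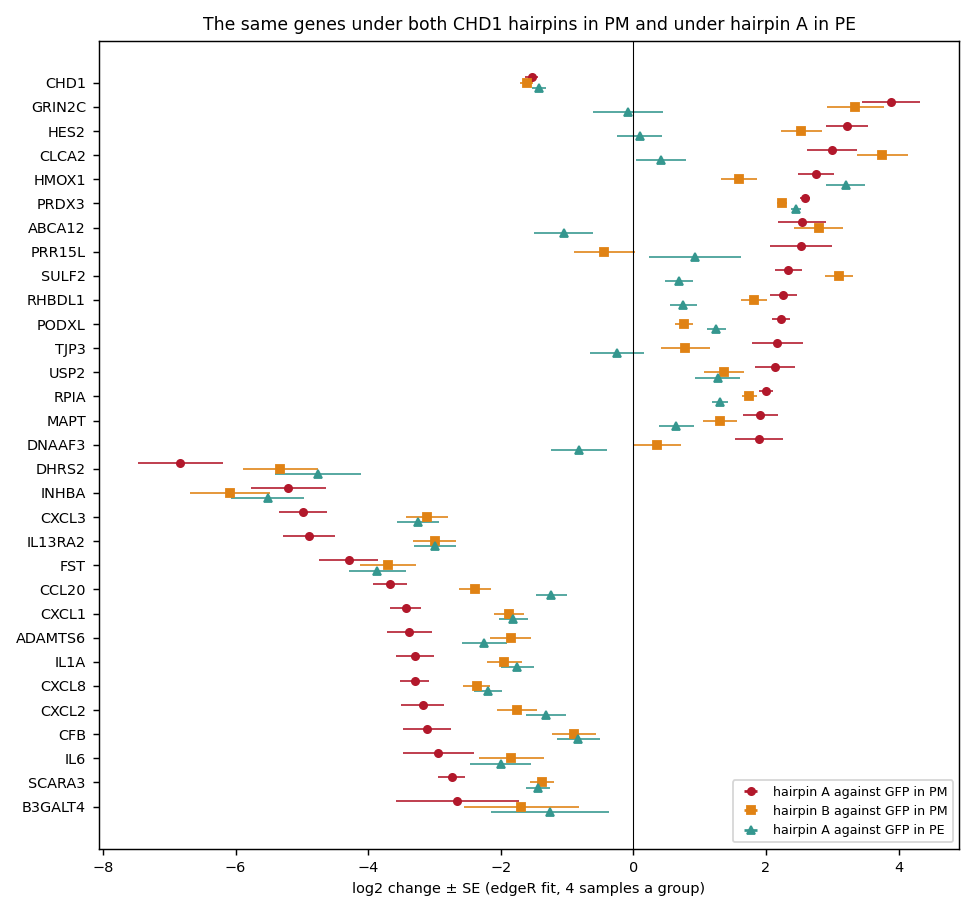
Log2 change ± SE for CHD1 and the 15 largest rises and falls of hairpin A in PM (red), with hairpin B in PM (orange) and hairpin A in PE (green); the PM contrasts share the GFP samples. For the chemokines the red points lie furthest left, for example -3.44 against -1.88 and -1.81 for CXCL1, and for GRIN2C and HES2 the green points lie near 0 (-0.08 and 0.09). The rises and falls were chosen by the red values, a choice that favours red points lying furthest out.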

How the data were processed

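Poly(A) RNA of MCF10A cells was sequenced in 24 samples, 4 in each of 6 groups. Per the submitters' processing notes, the authors used FastQC, Trim Galore 0.4.0, HISAT2 2.2.1, GRCh38 and featureCounts. The deposited values are whole-number counts per gene, with no scaling; for the annotation release, strand setting and reads with several matches, nothing is stated in the labels, so antisense, overlapping and near-identical genes are uncertain. The table holds 59251 genes, 17236 of them without a count.

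From the counts, all 24 samples were fitted in 1 model with edgeR 4.0.16 (R 4.3.3; filterByExpr, TMM scaling, robust quasi-likelihood F test, two-sided), and p-values were adjusted over the 20820 genes tested, with a threshold of 0.05. Contrasts were hairpin A minus GFP in PM, hairpin A minus B in PM, and the difference of the hairpin A effect between PM and PE. CPM use TMM-scaled library sizes; standard errors come from the F statistic. On simulated counts for the first contrast, run on 20820 genes, 85 of 100 genes changed 2-fold and 60 of 100 changed 1.5-fold were recovered, with 10 false calls. The changed genes were drawn from those with a mean of at least 1 CPM, so recovery below that level was not tested. Fewer genes were changed than were called in the data, and no sample was simulated as standing apart. Replicate numbers were not used to pair samples in the main model: deviations of same-numbered hairpin A and GFP samples correlated at 0.006 to 0.077. Differently numbered pairs correlated at -0.059 to 0.020, so the numbers may carry a small shared effect. Call counts with a replicate block are given below. Replicates differed by more than counting noise.

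Named genes were coding genes that reached 5 CPM on average in 1 group, without overlap of the groups (15 largest rises and falls; 8 each way in the other contrasts), the 10 most abundant called genes, 5 non-coding genes each way (mean of at least 1 CPM), and from each of 51 lists up to 5 called members with the largest changes and the 3 most abundant. Members and lists were chosen with earlier results of these data known. Alternatives were other scalings, DESeq2 1.42.0, limma-voom 3.58.1, other filters, a replicate block, fewer groups in the fit, and leaving out each sample. Gene positions, lengths and promoters are RefSeq's (GRCh38.p14), matched by symbol for 57842 genes and by synonym for 370. Some named genes are not reported here.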

Additional observations from a re-analysis of the deposited data

Results flagged for a closer look

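Among 72 sets of 4 samples, 2 held a sample far from the other 3, where chance flags about 1 in 20: the GFP hairpin's replicate 3 in PM was low for HES2 (0.458 CPM) and for RPIA (14.6 CPM).

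The change under hairpin A differed between the lines for 20 of 32 genes (edgeR, adjusted p under 0.05), against 6.66% of all genes tested. The 32 are CHD1, MYC and the 15 largest rises and 15 largest falls of hairpin A in PM, a choice that favours a larger change in PM. The change was more positive in PM for GRIN2C by 3.97, ABCA12 by 3.60, HES2 by 3.13, DNAAF3 by 2.72, CLCA2 by 2.57, TJP3 by 2.42, SULF2 by 1.65, RHBDL1 by 1.51, MAPT by 1.27, PODXL by 0.97 and RPIA by 0.69 on the log2 scale. It was more negative in PM for CCL20 (-2.43), CFB (-2.28), IL13RA2 (-1.90), CXCL2 (-1.86), CXCL3 (-1.74), CXCL1 (-1.62), IL1A (-1.55), SCARA3 (-1.30) and CXCL8 (-1.10).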

How the results depend on the processing

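No named gene changed direction under the alternatives run. The balance of calls did: for hairpin A against GFP, 48.4% were higher, against 52.3% without replicate 4 of hairpin A and 51.8% with DESeq2 size factors; with library sizes alone, hairpin A against B went from 51.5% to 41.4% and the line difference from 41.5% to 56.5%. Hairpin A against GFP in PM gave 4995 to 5583 calls when 1 sample was left out, and 6530 with a replicate block (5778 without). The block moved the count for the line difference from 1386 to 2184. With at least 5 CPM required in 4 samples, fewer genes were tested and 519 changed at least 2-fold, in place of 1130. The log2 change of MYC was 0.14 in DESeq2's Wald test (adjusted p = 0.0347) and 0.10 to 0.17 with 1 sample left out; the cause was not tested. Of 4261 alternative values for 269 named genes, 4117 kept direction and call, 142 (29 genes) lost the call and 2 gained it; 94 of 1632 list counts moved by over 1.5 times. Genes with few counts are the least certain, since depth limits them.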

Other observations

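Lists not described above held few calls or calls in both directions for hairpin A against GFP in PM. Of 38 interferon response genes, 10 fell and 3 rose; HERC5, an interferon-induced ligase, fell from 4.86 ± 1.65 to 1.80 ± 0.259 CPM and the membrane protein IFITM2 rose by 0.61 on the log2 scale. In antigen processing, the peptide transporter TAP1 stood at 298, 312, 331 and 253 CPM under hairpin A and at 164, 178, 157 and 152 CPM under the GFP hairpin (log2 0.88), while B2M, the light chain of MHC class I, did not pass (log2 -0.09, adjusted p = 0.378, edgeR). Of 36 glycolysis and hypoxia genes, 3 rose and 4 fell, and GAPDH, ENO1 and PKM did not pass (log2 0.12, -0.04 and 0.03).

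In the circadian clock list, 4 of 20 rose and 5 fell. CLOCK rose from 31.9 ± 1.71 to 56.8 ± 3.70 CPM, and its partner ARNTL fell from 20.3 ± 1.89 to 11.6 ± 0.523 CPM. MCL1, an anti-apoptotic BCL2 relative, stood at 454, 462, 449 and 444 CPM against 760, 755, 770 and 655 CPM (log2 -0.70). Of the 15 tested genes of its family, 3 fell and none rose, and the 20.0% called was below the 27.8% of all genes. In the Notch list, NOTCH1 rose from 55.2 ± 4.18 to 93.0 ± 14.8 CPM and HES4 fell from 30.7 ± 2.57 to 13.2 ± 1.25 CPM. In the Wnt list, WNT5A fell from 13.8 ± 1.68 to 6.83 ± 1.57 CPM, and the receptor FZD6 rose from 36.8 ± 4.59 to 66.5 ± 4.44 CPM. Of 33 lysosome and autophagy genes, 8 rose and 12 fell; the protease CTSD was at 313 ± 28.1 against 204 ± 21.9 CPM.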
